A study of Mus musculus with 3 samples.

Results

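Cycling CD8 T cells are the cytotoxic T lymphocytes of the tumor that carried transcripts of the cell division machinery when they were captured. They were selected from raw unique molecular identifier (UMI) counts, where 1 UMI stands for 1 captured transcript. A cell had to have at least 2 UMIs of Cd3e, at least 1 UMI each of Cd8a and Cd8b1, none of Cd4 or Ncr1, and at least 4 UMIs of the proliferation genes Mki67 and Top2a together, within limits of 1000 to 6000 genes per cell and under 7.5% mitochondrial UMIs. The rule found 1190 cells, which were 13.3% of the 8917 CD8 T cells and 3.73% of the 31943 cells within the limits. They were compared with CD8 T cells of the same library without a UMI of Mki67 or Top2a, split into 1624 cells with at least 1 UMI of Havcr2, the gene of the inhibitory receptor TIM-3, and 3761 cells with none. The remaining 2342 CD8 T cells had 1 to 3 UMIs of the pair and entered no comparison.

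The cells came from 3 single-cell RNA libraries of lymphocytes sorted out of subcutaneous MC38-Ova tumors, a mouse colon carcinoma line that expresses ovalbumin, grown in wild-type C57BL/6 Kaede mice from 250000 injected cells and treated with an isotype control antibody. The study's text names the tumors of its single-cell experiment MC38 and lists MC38-Ova as a separate line. The Kaede protein was switched from green to red by light on the tumor on day 13 and tumors were taken on day 15. Kaede-red cells had therefore been in the tumor at the time of light exposure, whereas Kaede-green cells had arrived later or had not been converted. Live CD45+TER119-Kaede+ cells were sorted with CD11b+NK1.1- cells gated out, and 2 libraries held the Kaede-green fraction and 1 the Kaede-red fraction. All 3 libraries share genotype, tumor line and antibody. The study's methods give 1 age range for all of its experiments and state sex-matching within each one, but not which sex or age these mice had. The study's text describes the sorted lymphocytes as split into the green and red fractions, but which animals gave each library is not given in the sources used here. The p-values measure how the difference between cycling and non-cycling cells varied over these 3 libraries, with the library as a block. They cannot be read as a spread between animals. The deposited tables held 10498 cells with 87193225 UMIs in Kaede-green 1, 12327 cells with 129438292 UMIs in Kaede-green 2 and 11956 cells with 175848894 UMIs in Kaede-red. Values given for the 3 libraries follow this order throughout.

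CD8 T cells recognize peptides on class I molecules and kill by releasing perforin and granzymes. In tumors a progenitor-like state marked by the transcription factor Tcf7 gives rise to effector and terminally exhausted states that carry inhibitory receptors such as PD-1, LAG-3 and TIM-3. A dividing cell switches on DNA replication genes under E2F factors in S phase and mitotic genes in G2 and M, and it needs nucleotides, membranes and protein synthesis to double its content.

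The promoters that follow, 250 bases before to 50 bases after the start of each gene from RefSeq on GRCm38.p6, are shown because they belong to mitotic genes of the cell cycle list, which the rule did not read, and to interferon-response genes that were lower in the cycling cells. Capitals mark TTTGAA (the cell cycle homology region) and CCAAT (the box bound by NF-Y) in the mitotic genes Cdk1 and Ccnb2, and the core of the interferon-stimulated response element, which is GAAA, any 2 bases and GAAA again, in Ifit3 and Slfn5. Each was searched on both strands, so that its reverse complement is also in capitals. The windows lie at chr10:69352863-69353162 on the minus strand for Cdk1, chr9:70421505-70421804 on the minus strand for Ccnb2, chr19:34583279-34583578 on the plus strand for Ifit3 and chr11:82951852-82952151 on the plus strand for Slfn5, where RefSeq places the start downstream of the GENCODE start of the gene given later.
Cdk1: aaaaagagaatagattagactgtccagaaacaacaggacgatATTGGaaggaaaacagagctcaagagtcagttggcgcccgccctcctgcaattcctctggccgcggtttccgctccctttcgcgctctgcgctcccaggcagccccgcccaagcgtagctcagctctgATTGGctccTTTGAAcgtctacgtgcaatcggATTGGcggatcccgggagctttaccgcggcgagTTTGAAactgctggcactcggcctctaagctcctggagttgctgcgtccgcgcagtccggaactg
Ccnb2: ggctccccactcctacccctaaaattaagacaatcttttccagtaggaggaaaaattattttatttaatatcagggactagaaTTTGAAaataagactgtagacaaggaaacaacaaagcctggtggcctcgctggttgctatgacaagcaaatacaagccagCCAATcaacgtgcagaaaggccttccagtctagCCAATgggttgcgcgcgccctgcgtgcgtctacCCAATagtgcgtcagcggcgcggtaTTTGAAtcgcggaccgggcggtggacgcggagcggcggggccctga
Ifit3: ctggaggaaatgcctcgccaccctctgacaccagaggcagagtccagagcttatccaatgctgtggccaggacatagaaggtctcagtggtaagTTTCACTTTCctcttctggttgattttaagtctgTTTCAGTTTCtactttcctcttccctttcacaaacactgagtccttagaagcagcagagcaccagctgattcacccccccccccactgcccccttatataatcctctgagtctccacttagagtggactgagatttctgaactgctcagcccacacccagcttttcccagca
Slfn5: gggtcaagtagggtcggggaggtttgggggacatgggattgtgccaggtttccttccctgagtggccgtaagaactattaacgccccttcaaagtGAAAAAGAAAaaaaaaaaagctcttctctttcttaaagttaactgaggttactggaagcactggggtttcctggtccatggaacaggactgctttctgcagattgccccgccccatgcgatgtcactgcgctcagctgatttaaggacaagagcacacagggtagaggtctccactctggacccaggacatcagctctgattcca

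Of the 54 genes of the G2 and M list, 47 had a promoter in the RefSeq table, and 32 of these (68.1%) held TTTGAA against 20.2% of all 27025 promoters of the same length. CCAAT stood in 36 of the 47 (76.6%) against 41.1%. Of the S phase list, 22 of 32 promoters (68.8%) held CCAAT, 5 (15.6%) held TTTGAA, and 12 (37.5%) held the E2F motifs TTTCCCGC or TTTGGCGC against 1.80% of all promoters and 4.26% of the G2 and M list. The response element core stood in 24 of the 40 interferon-stimulated genes with a promoter (60%) against 3.99% of all, and TTTGAA stood in 16 of these 40 (40%) and CCAAT in 14 (35%). These are matches of letters in a fixed window, not measured binding.

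The cells selected by the rule had the transcripts of dividing cells. Nusap1, which encodes a spindle protein that the rule did not read, reached 201.4, 179.5 and 254.2 CPM (UMIs of the gene scaled to a common library total) in the cycling cells of the 3 libraries, and 2.36 to 4.67 CPM in all 6 sums of non-cycling cells. Every cycling sum lay above every non-cycling sum. Genes of the S phase list, such as Pcna, and of the G2 and M list, such as Hmgb2, had median log2 differences of 2.45 and 4.31 from the Havcr2-positive cells and 2.62 and 4.37 from the Havcr2-negative cells. The full cell cycle list took a median of 5.72%, 5.10% and 6.70% of a cycling cell's UMIs in the 3 libraries and 1.71% to 1.90% of a non-cycling cell's. Because Mki67 and Top2a chose the cells, the cell cycle genes are given as a description and were left out of every count that follows.

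Members differed among themselves in how far they were into division. The median cycling cell had 23 UMIs of Mki67 and Top2a and the highest had 146. UMIs of the G2 and M list exceeded those of the S phase list in 68.8% of the cells, at 63.2%, 62.4% and 73.0% in the 3 libraries (exact 95% binomial intervals 54.8% to 71.1%, 57.0% to 67.6% and 69.6% to 76.3%). The interval of Kaede-red lay above that of Kaede-green 2 and overlapped that of Kaede-green 1. Because the rule chose cells by Mki67 and Top2a, these shares describe the selected cells and do not measure the phases of all dividing cells.

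The threshold cut through a continuum. Just outside it, cells with 3 UMIs of the pair had 14.7, 7.47 and 9.03 CPM of Nusap1 in the 3 libraries, and just inside it, the 124 cells with 4 UMIs had 7.95, 11.5 and 13.1 CPM. Cells with 8 or more UMIs had 255, 265 and 303 CPM. Cells with 4 UMIs thus lay near those with 3, and those with 7 UMIs had 40.1, 22.4 and 50.8 CPM. In all, 305 of the 1190 members had 4 to 7 UMIs of the pair.

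**Figure D1:**
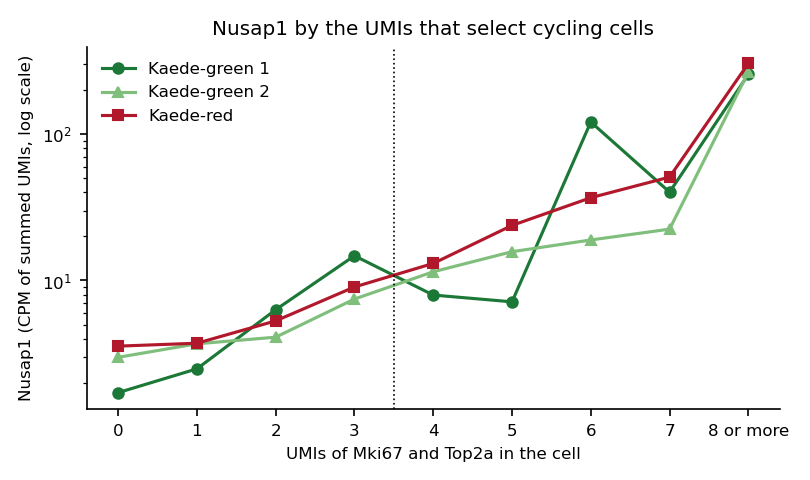
Nusap1 (CPM of summed UMIs, log axis) in CD8 T cells grouped by their UMIs of Mki67 and Top2a (x axis), with a line for each library and a dotted line at the threshold. Values just inside and just outside the threshold lie close together, and cells with 8 or more UMIs reach 255 to 303 CPM.

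Cycling cells made up 6.52% of CD8 T cells in Kaede-green 1 (144 of 2208, exact 95% binomial interval 5.53% to 7.63%), 11.4% in Kaede-green 2 (338 of 2967, 10.3% to 12.6%) and 18.9% in Kaede-red (708 of 3742, 17.7% to 20.2%). The share was highest in Kaede-red, and the intervals of the Kaede-green libraries did not overlap each other either. With each cell thinned to 3000 UMIs and at least 1 UMI of the pair required, the shares were 12.7%, 19.1% and 25.7%, in the same order. With 1 Kaede-red library there is no test between colors, and these intervals cover counting error only.

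Cycling cells held far more UMIs than the other CD8 T cells. Their median UMI count was 28385, 26750.5 and 26044.5 in the 3 libraries, against 9717, 10139 and 13417 in Havcr2-positive and 7730, 8327 and 9160 in Havcr2-negative non-cycling cells. The ratio of medians was 1.94 to 2.92 to the Havcr2-positive and 2.84 to 3.67 to the Havcr2-negative cells. The upper limit on genes removed 49 further cells that passed the gate and the mitochondrial limit removed 13. No cell barcode was shared between the cycling cells of any pair of libraries.

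**Figure D2:**
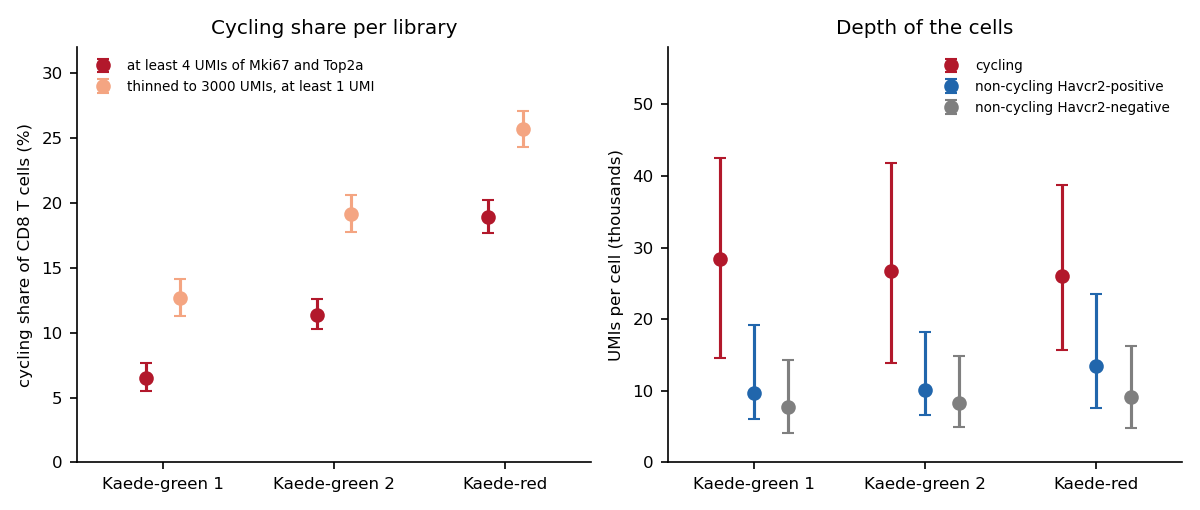
Left, cycling share of CD8 T cells (%) per library with exact 95% binomial intervals, by the rule and after thinning to 3000 UMIs. Right, median UMIs per cell (in units of 1000) per library and gate, with bars from the 10th to the 90th percentile. The share is highest in Kaede-red under both definitions, and cycling cells are the deepest in each library.

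Levels were therefore compared after each cell had been thinned to 3000 UMIs, and the UMIs of each gate were summed per library and expressed as CPM. A lower level after thinning means a smaller part of the cell's transcripts. Of the 1000 genes lower than in Havcr2-positive cells, described next, 831 still had more UMIs per cell before thinning in the cycling cells of all 3 libraries and 22 had fewer in all 3. Of the 1614 genes lower than in Havcr2-negative cells, 1415 had more and 55 had fewer. A sum over cells does not tell a lower level in every cell from fewer cells with the transcript. Since non-cycling cells were shallower, each comparison was also made with only the non-cycling cells between the 10th and 90th percentiles of the cycling cells' UMIs (77, 128 and 282 Havcr2-positive and 130, 154 and 132 Havcr2-negative cells in the 3 libraries), at 6000 UMIs per cell. It is called depth-restricted here and tested 6591 genes outside the cell cycle. It narrowed the difference in depth without removing it, since the medians were then 17996, 17667.5 and 20133.5 UMIs in Havcr2-positive and 17345, 16638 and 18194 UMIs in Havcr2-negative cells against 28825, 26842.5 and 26044.5 UMIs in cycling cells. Its non-cycling cells also held more markers of other cells. Against Havcr2-positive and Havcr2-negative cells, median log2 differences of myeloid markers were -2.32 and -2.14, against -1.08 and -0.62 at all depths. Those of NK markers were -1.24 and -1.56, against -0.87 and -0.76, and of the B cell marker -0.29 and -1.35, against 0.23 and -0.89. What this did to the depth-restricted values was not tested.

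Against non-cycling Havcr2-positive cells, a larger part of the transcripts of cycling CD8 T cells came from nucleotide and serine-folate genes and a smaller part from chemokines, granzymes and inhibitory receptors. The smaller part did not always mean fewer transcripts in a cell, since Pdcd1 had 10.6, 8.48 and 12.4 UMIs per cycling cell before thinning and 7.11, 5.22 and 10.2 per Havcr2-positive cell in the 3 libraries. With the library as a block, the quasi-likelihood test of edgeR, adjusted by Benjamini-Hochberg over all genes, called 872 of 8548 genes outside the cell cycle higher (10.2%) and 1000 lower (11.7%). The median log2 fold change over these genes was -0.06. In the depth-restricted comparison 513 genes were higher (7.78%) and 564 lower (8.56%), with 405 and 349 of them shared with the first calls. The counts were 490 and 474 without Kaede-green 2, 503 and 569 by DESeq2 and 583 and 547 without the block.

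The gene with the largest rise among the genes named by rule was Dapl1 (chr2:59484653-59505020 on GRCm38, plus strand), a transcript of naive and memory-like T cells. It stood at 81.0, 75.9 and 72.0 CPM in cycling cells of the 3 libraries and at 10.6, 5.47 and 5.05 CPM in Havcr2-positive non-cycling cells. The groups did not overlap, and the log2 fold change was 3.56 ± 0.22 (SE; adjusted p = 6.61e-13 by edgeR's quasi-likelihood test). It was 2.93 ± 0.23 depth-restricted. Against Havcr2-negative cells, at 64.5, 47.5 and 44.6 CPM, Dapl1 was higher by only 0.55 ± 0.14 (adjusted p = 0.00201), and depth-restricted it was lower, at -0.88 ± 0.14 (adjusted p = 1.67e-05).

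Hirip3 (chr7:126861972-126865377, plus strand), which encodes a histone-binding partner of the HIRA chaperone, was at 60.2, 46.4 and 56.5 CPM in cycling cells of the 3 libraries, at 3.55, 10.3 and 6.31 CPM in Havcr2-positive and at 7.08, 7.91 and 9.33 CPM in Havcr2-negative cells. Its log2 fold changes were 2.85 ± 0.25 and 2.64 ± 0.21 (adjusted p = 1.05e-09 and 1.12e-10). Nsd2, a histone H3 lysine 36 methyltransferase, was at 120.4, 98.6 and 120.5 CPM in cycling cells and did not exceed 37.1 CPM in the others, with log2 fold changes of 1.79 ± 0.17 and 1.96 ± 0.15. Both genes lay outside the cell cycle list, were separated from both non-cycling gates in every library and kept log2 differences of at least 1.65 depth-restricted. Alyref, an mRNA export adaptor, was at 310.2, 200.2 and 289.1 CPM in cycling cells against 67.5 to 107.6 CPM in Havcr2-positive and 68.7 to 79.9 CPM in Havcr2-negative cells. The other genes named in this direction were Cmc2, a mitochondrial cytochrome c oxidase assembly factor, Fabp5, a fatty acid binding protein, the spliceosomal cyclophilins Ppil1 and Ppih, the DNA repair gene Rdm1, which overlaps the model Gm23849 on its strand, and Phgdh. Their log2 fold changes ran from 1.58 to 2.10 against Havcr2-positive and from 1.46 to 2.14 against Havcr2-negative cells, and each was called in both comparisons and in both depth-restricted ones.

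Phgdh, the first enzyme of serine synthesis, belongs to the list of serine and one-carbon genes that supply folate-bound carbon for nucleotides. It was at 185.2, 138.1 and 154.0 CPM in cycling cells of the 3 libraries, 61.5, 42.6 and 51.4 CPM in Havcr2-positive and 48.8, 59.7 and 54.0 CPM in Havcr2-negative cells. Of 15 genes of that list tested, 9 were higher and none lower against Havcr2-positive cells (median log2 fold change 1.04), and 10 were higher and none lower against Havcr2-negative cells (1.10), where the share called over all 8548 genes was 16.8% higher and 18.9% lower. Mthfd2, the mitochondrial folate enzyme, rose by 1.51 ± 0.16 and 1.64 ± 0.14 on the log2 scale, and Psat1, the transaminase after Phgdh, by 1.39 ± 0.21 and 2.08 ± 0.20. Depth-restricted, 6 of 12 genes were higher and 1 lower against Havcr2-positive cells and 3 higher against Havcr2-negative cells.

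The nucleotide synthesis list moved the same way. Of 29 genes tested, 18 were higher and none lower against Havcr2-positive (median 0.61) and 19 higher and none lower against Havcr2-negative cells (0.62). Impdh2, the rate-limiting enzyme of guanine nucleotide synthesis, was at 159.7, 136.1 and 156.3 CPM in cycling cells of the 3 libraries and at 80.4, 59.0 and 52.6 CPM in Havcr2-positive cells, a log2 fold change of 1.27 ± 0.13. Ctps, which makes CTP, rose by 1.70 and 1.84, and Paics, of purine synthesis, by 0.89 and 1.20. The first call of Ctps was lost with the cycling cells also divided by Havcr2 (0.87). Depth-restricted, 10 of 28 genes were higher and 1 lower against Havcr2-positive cells and 7 were higher against Havcr2-negative cells. Genes of cholesterol and fatty acid synthesis had 6 and 11 of 27 higher and none lower, where 10.2% and 16.8% of all genes were higher. Depth-restricted, 1 and 4 of 19 were higher, where 7.78% and 8.85% of all genes were, so that the first count lay below that share. Ribosome biogenesis had 12 and 14 of 55 genes higher, which fell to 6 and 2 of 52 with 1 and 3 lower when depth-restricted. The second of these higher counts was below the share of all genes. Ncl, encoding nucleolin, was among the genes that were higher in all 4 fits, by 0.24 to 0.52, though without the block its call against Havcr2-negative cells was lost (0.36).

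**Figure D3:**
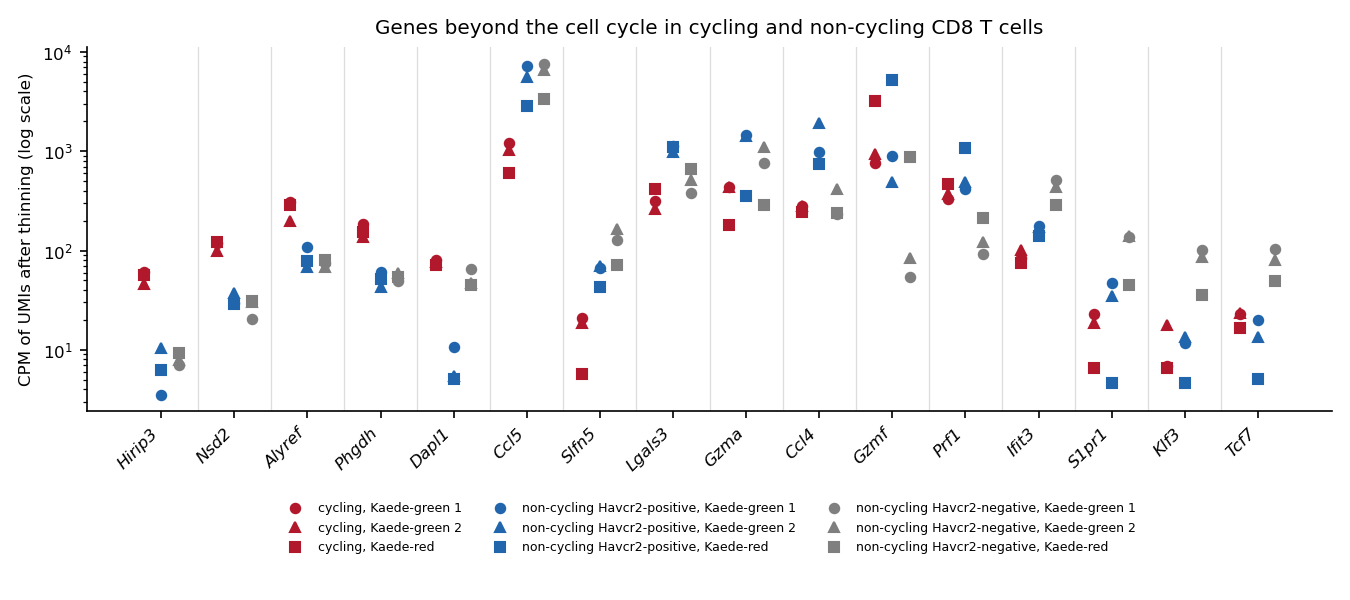
CPM after thinning (log axis) of 16 genes in cycling (red), non-cycling Havcr2-positive (blue) and Havcr2-negative (gray) CD8 T cells, with 1 symbol per library. The genes were picked from those named in the text after their values were seen; cycling cells lie apart from both other gates for Hirip3, Nsd2, Alyref, Phgdh, Ccl5, Slfn5 and Ifit3.

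Among the genes named by rule, which reach at least 50 CPM in the higher gate, the largest fall against Havcr2-positive cells was that of Ccl5 (chr11:83525778-83530518, minus strand), a chemokine that T cells store and release after activation. It was at 1208, 1040 and 598.9 CPM in cycling cells of the 3 libraries, 7270, 5574 and 2822 CPM in Havcr2-positive and 7635, 6633 and 3352 CPM in Havcr2-negative cells. The groups did not overlap, and Ccl5 was lower in Kaede-red than in both Kaede-green libraries in each gate. The log2 fold changes were -2.45 ± 0.06 and -2.66 ± 0.06 (adjusted p = 3.82e-21 and 3.76e-22 by edgeR's quasi-likelihood test). Ccl5 was lower per cell as well, with 20.3, 21.1 and 12.6 UMIs before thinning against 47.7, 48.0 and 22.8 in Havcr2-negative cells, and it was lower than in Havcr2-positive cells in each library too. Depth-restricted, it remained lower, by -1.16 ± 0.12 and -0.58 ± 0.12 (adjusted p = 1.23e-08 and 0.000486).

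Slfn5 (chr11:82951349-82964840, plus strand), an interferon-induced member of the Schlafen family, was at 20.8, 18.7 and 5.65 CPM in cycling cells of the 3 libraries, 66.2, 70.6 and 42.5 CPM in Havcr2-positive and 128.9, 163.7 and 71.5 CPM in Havcr2-negative cells. It was separated from both in every library, with log2 fold changes of -2.26 ± 0.23 and -3.27 ± 0.19, and -1.36 ± 0.22 and -2.44 ± 0.19 depth-restricted. The histone demethylase gene Kdm7a fell by 1.52 and 1.90 on the log2 scale. Lgals3, encoding galectin-3, was at 314.8, 264.3 and 417.1 CPM in cycling cells against 1124, 989.1 and 1100 CPM in Havcr2-positive cells, and the kinase-like gene Styk1 and the annexin gene Anxa1 fell by 1.34 and 1.48 against the same cells. These falls in Lgals3, Styk1 and Anxa1 were called again depth-restricted.

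Cytokines and chemokines had 10 of 14 tested genes lower and none higher against Havcr2-positive cells, with a median of -0.90, whereas against Havcr2-negative cells 5 were higher and 2 lower, with a median of 0.24. Of all genes outside the cell cycle, 11.7% were lower in the first comparison, and 16.8% were higher and 18.9% lower in the second. Ccl4, a chemokine of activated cytotoxic cells, was at 277.8, 279.1 and 246.2 CPM in cycling cells and at 979.9, 1925 and 739.1 CPM in Havcr2-positive cells. Ccl3, its neighbor in function and sequence, was at 169.0, 148.9 and 53.7 CPM against 388.9, 470.2 and 189.4 CPM, and the gene of interferon gamma, Ifng, at 219.9, 255.4 and 215.2 CPM against 563.8, 491.5 and 323.7 CPM. All 3 genes were lower in every library, at log2 fold changes of -2.12 ± 0.14, -1.66 ± 0.18 and -0.98 ± 0.13. Against Havcr2-negative cells Ccl3 and Ifng rose, by 1.20 ± 0.20 and 0.57 ± 0.13, and Ccl4 did not pass the test (-0.17 ± 0.14). With the cycling cells also divided by Havcr2, Ccl3 and Ifng were at -0.47 and -0.081 there and not called. The call of Ifng was also lost from 8 UMIs of Mki67 and Top2a (0.30). Ccl4 had no stable direction there, since it was called higher depth-restricted (0.90) and lower with that division (-0.68) and without Kaede-red (-0.34). Ccl1 fell by 1.49 against Havcr2-positive cells. Depth-restricted, 6 of 12 genes were lower than in Havcr2-positive cells, where 8.56% of all genes were. Ccl4, Ccl3 and Ifng were among these 6 at -0.93, -0.98 and -0.77.

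Granzymes and granule genes had 12 of 18 lower and none higher against Havcr2-positive cells (median -0.47), and 12 of 16 lower depth-restricted (-0.59). Of all genes outside the cell cycle, 11.7% were lower, then 8.56%. Gzmb, the main apoptosis-inducing granzyme, was at 1574, 1890 and 2757 CPM in cycling cells and 2833, 2391 and 5440 CPM in Havcr2-positive cells, a log2 fold change of -0.78 ± 0.12. Prf1, encoding perforin, was at 328.7, 366.9 and 468.0 CPM against 413.7, 485.4 and 1083 CPM, at -0.76 ± 0.12. With the cycling cells also divided by Havcr2, neither gene was called lower than in Havcr2-positive cells (-0.33 for Gzmb and -0.19 for Prf1), and the call of Prf1 was also lost without the block (-0.81). Gzma fell by 1.52 on the log2 scale. Gzmf (chr14:56205263-56211417, minus strand), 1 of a cluster of related granzyme genes with Gzmc, Gzmd, Gzme and Gzmg, did not pass the test at -0.07 ± 0.22 (adjusted p = 0.872). Its libraries disagreed, with 756.9, 943.8 and 3186 CPM in cycling cells and 904.3, 493.9 and 5263 CPM in Havcr2-positive cells. How far sequence shared among the genes of the cluster affected their counts was not tested. Depth-restricted, Gzmf was lower at -1.28 ± 0.13 (adjusted p = 1.75e-08), and Gzmc, Gzmd and Gzme, uncalled at 0.12, 0.38 and 0.28, were lower at -1.05, -1.03 and -1.22. Without the Kaede-red library and at all depths, Gzmd and Gzme were instead higher, at 1.64 and 1.32.

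Inhibitory receptors had 10 of 16 tested genes lower and none higher (median -0.67), in a comparison whose reference cells were chosen by the inhibitory receptor gene Havcr2. Lag3 was at 312.5, 285.0 and 404.0 CPM in cycling cells and at 713.9, 596.1 and 768.5 CPM in Havcr2-positive cells, with no overlap, at -1.11 ± 0.11. Pdcd1, encoding PD-1, was at 398.1, 309.7 and 493.9 CPM against 654.8, 468.4 and 727.3 CPM, at -0.66 ± 0.09. Depth-restricted, 6 of 13 were lower, Lag3 at -0.74 and Pdcd1 at -0.48. Of all genes outside the cell cycle, 11.7% were lower at all depths and 8.56% depth-restricted. Against Havcr2-negative cells neither gene passed the test, at 0.08 ± 0.11 for Lag3 and -0.02 ± 0.08 for Pdcd1, although Pdcd1 was called lower there with the cycling cells divided by Havcr2 (-0.40). The tissue-residency integrin gene Itgae fell by 3.10 and 2.08 on the log2 scale, at 11.6, 0 and 2.35 CPM in cycling cells, a level of few UMIs. The second call was lost without Kaede-green 2 (-1.42), from 2 UMIs of Mki67 and Top2a (-0.87) and with the cycling cells divided by Havcr2 (-0.18).

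Against non-cycling Havcr2-negative cells, a larger part of the transcripts of cycling CD8 T cells came from Gzmc and Gzmf and from the glycolysis and respiratory chain lists and a smaller part from the stem-like, egress, quiescence and interferon-stimulated lists. The test called 1437 genes higher (16.8%) and 1614 lower (18.9%) of the 8548, with a median log2 fold change of -0.05. Depth-restricted, 583 genes were higher (8.85%) and 672 lower (10.2%), with 488 and 517 shared with the first calls. The counts were 978 and 1050 without Kaede-green 2 and 983 and 1002 by DESeq2. This contrast shares its cycling sums with the one above, and the values of both are set side by side.

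Of the stem-like and naive T cell list, 17 of 20 genes were lower and 2 higher (median -1.32), and depth-restricted 16 of 18 were lower and none higher (-1.11). S1pr1 (chr3:115710433-115715072, minus strand), the receptor that guides lymphocytes out of tissue, was at 23.1, 18.7 and 6.59 CPM in cycling cells of the 3 libraries and at 137.7, 140.8 and 44.9 CPM in Havcr2-negative cells, a log2 fold change of -2.82 ± 0.22 (adjusted p = 3.26e-11) with no overlap. Havcr2-positive cells were at 47.3, 34.7 and 4.63 CPM, from which cycling cells did not differ by the test (-0.72 ± 0.29, adjusted p = 0.0727), although they were lower by the test in 9 alternatives (-1.91 to -0.68), among them the one without Kaede-red (-0.99). Tcf7, encoding the transcription factor TCF1, was at 23.1, 23.7 and 16.5 CPM in cycling, 102.8, 80.2 and 49.6 CPM in Havcr2-negative and 20.1, 13.4 and 5.05 CPM in Havcr2-positive cells, so that it was lower than in the first by -1.80 ± 0.18 and higher than in the second by 0.93 ± 0.27 (adjusted p = 4.53e-09 and 0.0107). The second of these calls was lost without Kaede-green 2 (1.03), without Kaede-red (0.57) and without the block (0.81), and with the cycling cells divided by Havcr2 the value was -0.76 and not called.

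Not every gene of the stem-like list followed Tcf7. Myb, a transcription factor gene of progenitor cells, was at 67.1, 44.4 and 34.4 CPM in cycling cells, 14.2, 19.5 and 11.8 CPM in Havcr2-positive and 42.5, 30.3 and 16.9 CPM in Havcr2-negative cells. It was higher than in both, by 1.53 ± 0.22 and 0.66 ± 0.18, though depth-restricted only the first passed the test (0.88 and -0.18) and without Kaede-red the second was 0.50 and not called. Dapl1 had the same order. Ccr7, the homing receptor, lay between the non-cycling gates, 0.68 ± 0.17 above the Havcr2-positive and -0.49 ± 0.16 from the Havcr2-negative cells. Both calls were lost by DESeq2 and without the block (0.61 and -0.48), and with the cycling cells divided by Havcr2 the values were -0.14 and 0.068. The first call was also lost without Kaede-green 2 (0.66) and the second without Kaede-red (-0.22). Bcl2, the survival gene, was at 101.9, 82.8 and 119.6 CPM against 302.3, 205.4 and 271.8 CPM in Havcr2-negative cells, at -1.42 ± 0.13. Myb and Dapl1 were the 2 genes of the list called higher in both comparisons. Against Havcr2-negative cells both calls depended on the settings, since that of Dapl1 was lost in 7 alternatives (0.035 to 0.46, the latter without the block) and that of Myb in 8 (0.30 to 0.50, with 0.49 without the block), besides the change of sign when depth-restricted.

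The quiescence-associated list had 18 of 25 genes lower and 1 higher against Havcr2-negative cells (median -0.98), and 10 lower and 2 higher against Havcr2-positive cells (-0.33). Of all genes outside the cell cycle, 18.9% and 11.7% were lower. Btg1, an antiproliferative gene, was at 902.8, 1013 and 766.5 CPM in cycling, 2019, 2273 and 1232 CPM in Havcr2-positive and 2551, 2478 and 1607 CPM in Havcr2-negative cells. It was lower than both without overlap, at -1.03 ± 0.08 and -1.33 ± 0.08. Klf3, a transcription factor gene of resting lymphocytes that overlaps the model C230096K16Rik on its strand, was at 6.94, 17.8 and 6.59 CPM against 100.9, 85.4 and 35.3 CPM in Havcr2-negative cells, at -2.63 ± 0.21, and did not pass the test against Havcr2-positive cells (0.25 ± 0.33). The gene called higher in both comparisons was Cdkn1a, which encodes the cell cycle inhibitor p21, at 97.2, 127.2 and 187.4 CPM in cycling and 82.1 to 94.3 CPM in Havcr2-positive cells, by 0.72 ± 0.15 and 1.29 ± 0.15, though the first was not called without Kaede-red (0.32) or depth-restricted (0.29). Depth-restricted, 12 of 24 were lower and 3 higher against Havcr2-negative cells, where 10.2% of all genes were lower and 8.85% higher. Against Havcr2-positive cells 3 were lower and 1 higher, where 8.56% and 7.78% of all genes were, so that the list was then near the share of all genes. The Gimap family, GTPases of resting lymphocytes whose paralogs lie in 1 cluster, had 8 of 8 genes lower against Havcr2-negative cells, also depth-restricted, and 7 of 8 lower against Havcr2-positive cells, of which 3 remained depth-restricted.

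Interferon-stimulated genes were more often lower than higher in the cycling cells in both comparisons. Against Havcr2-negative cells 49 of 51 were lower and 1 higher (median -1.10), and against Havcr2-positive cells 26 were lower and 1 higher (-0.35). Ifit3, an interferon-induced antiviral gene with the near-identical copy Ifit3b, was at 83.3, 100.6 and 74.9 CPM in cycling cells, 177.3, 173.4 and 139.3 CPM in Havcr2-positive and 516.7, 438.9 and 290.5 CPM in Havcr2-negative cells. The 3 gates did not overlap, and the log2 fold changes were -0.91 ± 0.13 and -2.25 ± 0.12. Ifit1, of the same family, fell by 0.79 and 2.15, Slfn1 by 0.96 and 2.06, and Isg15, encoding a ubiquitin-like protein, by 0.35 and 1.16. From 2 UMIs of Mki67 and Top2a, the calls against Havcr2-positive cells were lost for Ifit3 (-0.11), Ifit1 (-0.12), Slfn1 (-0.23) and Isg15 (-0.10). Depth-restricted, the list was largely uncalled against Havcr2-positive cells, with 4 of 50 lower, near the 8.56% of all genes, and a median of -0.07. Against Havcr2-negative cells it had 27 of 50 lower and 1 higher (-0.46), where 10.2% of all genes were lower. Ifit3 was then at -0.16 ± 0.14 (adjusted p = 0.493) and -0.79 ± 0.13 (adjusted p = 5.45e-05). Of the genes lower against Havcr2-negative cells, 8.43% of those with a promoter held the core of the interferon-stimulated response element, against 4.11% of all genes tested outside the cell cycle and 3.02% of the genes that were higher. Against Havcr2-positive cells it stood in 6.1% of the lower and 2.66% of the higher genes. The E2F motifs stood in 7.56% and 5.69% of genes higher against Havcr2-positive and Havcr2-negative cells. They stood in 3.35% of all tested genes and in 1.24% and 1.51% of the lower ones. Whether the cell cycle list left out genes of the cycle was not tested.

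Energy genes were more often higher than lower against the Havcr2-negative cells. Glycolysis had 14 of 18 genes higher and none lower (median 0.88), and 8 of 18 higher depth-restricted (0.40). Tpi1, triosephosphate isomerase, was at 583.3, 468.4 and 660.5 CPM in cycling cells and 128.0, 125.8 and 253.4 CPM in Havcr2-negative cells, at 1.73 ± 0.11 without overlap, and Gapdh rose by 0.99. Against Havcr2-positive cells 5 glycolysis genes were higher and 2 lower (0.12), whereas depth-restricted none was higher and 6 were lower (-0.27), with Gapdh at 0.13 and then -0.27 ± 0.08 (adjusted p = 0.0127). The respiratory chain had 53 of 89 genes higher and 3 lower against Havcr2-negative cells (0.33) and 13 of 87 higher and 3 lower depth-restricted, and the proteasome 31 of 42 higher and 2 lower, then 8 and 2. Of all genes outside the cell cycle, 16.8% were higher against Havcr2-negative cells and 8.85% depth-restricted. Against Havcr2-positive cells 10.2% were higher and 11.7% lower, then 7.78% and 8.56%. The proteasome list was filled by gene name and also holds Psmc3ip, a recombination cofactor.

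Cytosolic ribosomal proteins went the other way, with 48 of 84 lower and 7 higher against Havcr2-negative cells (median -0.20) and 75 of 83 lower and 1 higher depth-restricted (-0.46). Immediate early genes, which respond within minutes to stimulation and to handling of the tissue, had 19 and 18 of 27 lower against the Havcr2-positive and Havcr2-negative cells, and 7 and 12 of 26 depth-restricted. Costimulation genes had 12 of 22 lower and 2 higher against Havcr2-positive and 12 lower and 5 higher against Havcr2-negative cells, where all genes outside the cell cycle had 11.7% and 18.9% lower. T cell receptor signaling genes had 17 of 30 lower and none higher, then 15 lower and 2 higher, and cytokine receptors 11 of 24 lower and none higher, then 13 lower and 2 higher. Depth-restricted, the counts of lower genes fell to 8 of 19, 6 of 30 and 4 of 21 against Havcr2-positive cells, where 8.56% of all genes were lower. Against Havcr2-negative cells they fell to 4, 4 and 6, where 10.2% were lower, so that the T cell receptor signaling list was then near the share of all genes. Icos and Cd28, encoding costimulatory receptors, fell by 1.05 and 0.71 against Havcr2-positive cells, but depth-restricted Cd28 was no longer called (-0.14). Tnfrsf9, encoding the costimulatory receptor 4-1BB, fell by 0.40 ± 0.10 against Havcr2-positive and rose by 0.72 ± 0.10 against Havcr2-negative cells, with the first call lost without the block.

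Further lists had smaller or mixed counts. Of all genes outside the cell cycle, 10.2% were higher and 11.7% lower against Havcr2-positive cells. Against Havcr2-negative cells 16.8% were higher and 18.9% lower. Depth-restricted, these shares were 7.78% and 8.56%, then 8.85% and 10.2%. Egress and residency genes had 14 and 17 of 24 lower and 1 higher each against Havcr2-positive and Havcr2-negative cells, and 8 and 10 of 23 lower with 2 and 1 higher depth-restricted. Cxcr3, a chemokine receptor gene of the list, fell by 2.08 against Havcr2-negative cells. Exhaustion-associated factors had 7 lower and 1 higher of 17, then 5 lower and 3 higher, and depth-restricted 4 and 2 lower with none and 3 higher. The BCL2 family had 5 and 4 of 12 lower and 1 and 2 higher, the higher counts being near the shares of all genes. Heat-shock genes had 8 and 9 of 19 higher and 2 and 3 lower, and the tricarboxylic acid cycle 7 and 9 of 21 higher and 1 lower each. Amino acid transporters had 0 and 1 of 9 higher, below the shares of all genes. Myc and polyamine genes had 10 and 11 of 23 higher and 2 lower each, but depth-restricted none was higher and 3 and 4 were lower.

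**Figure D4:**
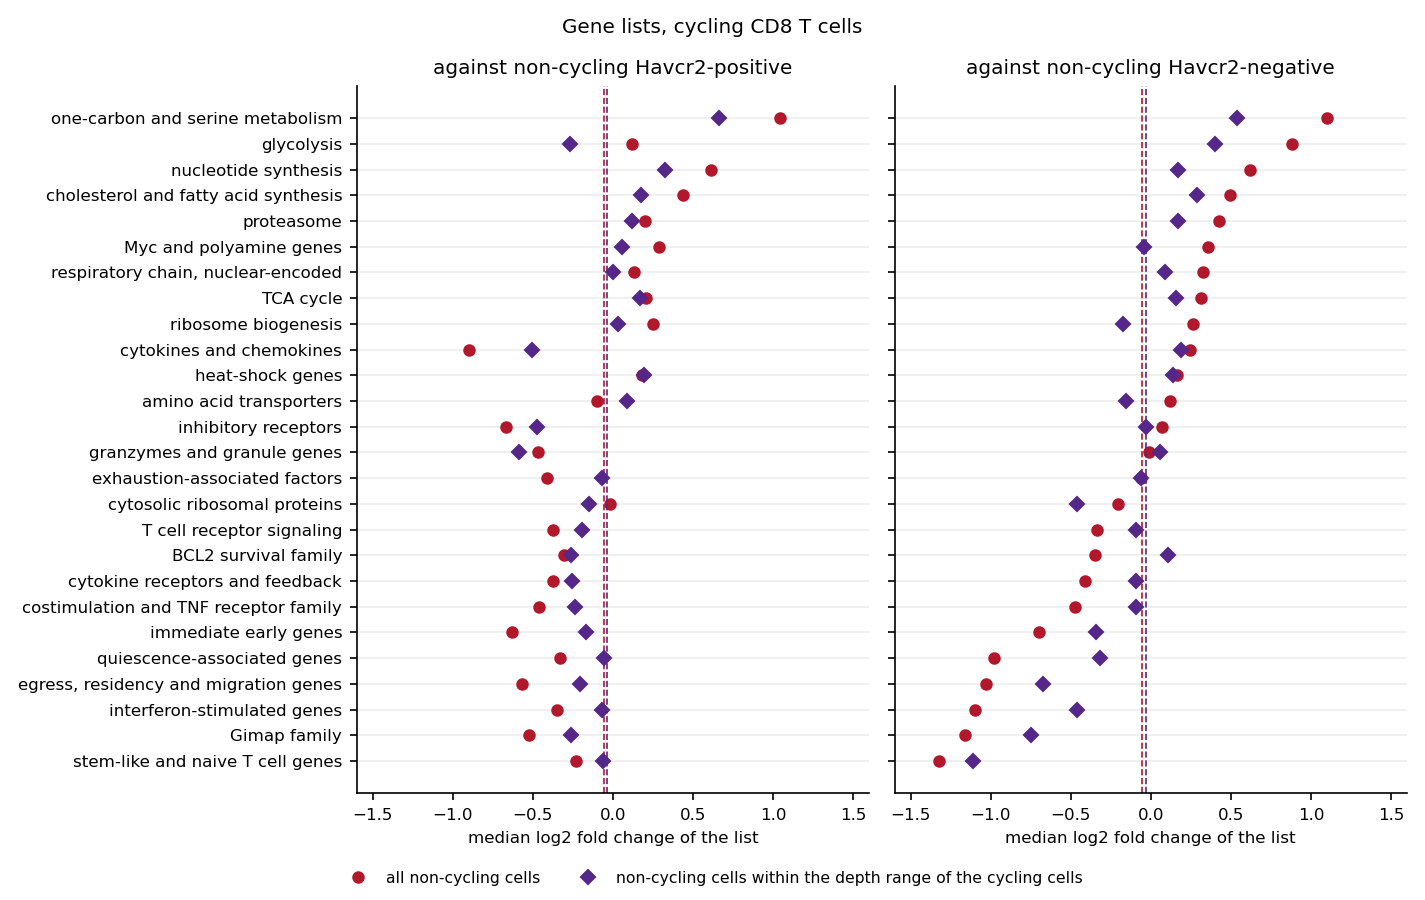
Median log2 fold change over the tested genes of each list in cycling CD8 T cells against Havcr2-positive (left) and Havcr2-negative (right) non-cycling cells, for all non-cycling cells (red circles) and for those within the depth range of the cycling cells (purple diamonds), with dashed lines at the median of all genes. Serine and one-carbon genes lie to the right in all 4, and stem-like genes lie farthest to the left against Havcr2-negative cells.

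Several granzymes of the cluster of Gzmc, Gzmd, Gzme, Gzmf and Gzmg rose against Havcr2-negative cells. Gzmf was at 53.7, 84.3 and 874.0 CPM there, so that cycling cells were higher by 2.88 ± 0.23 (adjusted p = 6.74e-11), and Gzmc, Gzmd and Gzme rose by 2.20, 2.65 and 2.88, whereas Gzmg did not pass the test (0.98 ± 0.48). Without the block the calls of Gzmd (2.56) and Gzmf (2.25) were lost, and with the cycling cells also divided by Havcr2 those of Gzmd (0.91) and Gzme (0.90). Prf1 was at 92.6, 122.8 and 213.2 CPM, without overlap, a rise of 1.40 ± 0.12. Over the granule list 5 of 18 were higher and 7 lower, the lower ones including Gzmk and Gzmm at -1.50 each, although depth-restricted Gzmk was at 1.78 and without the block Gzmm was not called (-1.84). Also named by rule were Serpine2, a serine protease inhibitor, at 2.59 ± 0.21, Spp1, encoding osteopontin and overlapping the model Gm42793 on its strand, at 2.17 ± 0.20, and the mitophagy gene Bnip3 at 2.03 ± 0.20. Depth-restricted, Gzmf was higher by 0.83 ± 0.14, Prf1 by 0.96 ± 0.15 and Gzmb, not called before (0.21, adjusted p = 0.176), by 0.62 ± 0.11.

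These cytotoxic genes were unevenly spread within the cycling cells. At least 1 UMI of Havcr2 was found in 41.7%, 53.6% and 59.7% of cycling cells of the 3 libraries at full depth, and in 17.4%, 13.9% and 17.7% after thinning to 3000 UMIs. B cells, which should lack it, had it in 0 of 149, 1 of 77 and 0 of 5 cells after thinning, at median depths of 4069, 4895.5 and 4975 UMIs. At equal depth the 3 shares no longer followed the order seen at full depth.

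Cycling cells with Havcr2 (60, 181 and 423 cells) had 1211, 1621 and 4598 CPM of Gzmf in the 3 libraries and those without it (84, 157 and 285 cells) had 404.8, 269.6 and 1170 CPM. Prf1 was at 561, 564 and 663 CPM with Havcr2 and at 95.2, 99.8 and 158 CPM without. Gzmb was at 2378, 2481 and 3791 CPM against 1147, 1231 and 1226 CPM. The cells with Havcr2 were higher for all 3 genes in every library, 4.03-fold, 5.06-fold and 2.40-fold on the means. Ccl3 was 5.34-fold and Spp1 3.74-fold higher with Havcr2. These folds were picked after their values were seen and carry no test.

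Cycling cells without Havcr2 had more of the stem-like transcripts. The stem-like list summed to 2671, 2983 and 2841 CPM in them and to 1756, 1869 and 1862 CPM in cycling cells with Havcr2, without a test. Dapl1 was at 119, 113 and 143 CPM in the cells without Havcr2 and at 38.9, 27.6 and 15.8 CPM in those with it, 4.55-fold higher on the means. Tcf7 was at 11.9, 46.7 and 43.3 CPM against 11.1, 7.37 and 3.15 CPM, higher by little in Kaede-green 1 and clearly in the other libraries. Xcl1, encoding a chemokine for cross-presenting dendritic cells, was at 543.6, 433.1 and 353.2 CPM against 194.4, 278.1 and 89.8 CPM, and Ccr7 was 2.01-fold higher. Ccl5 and Slfn5 did not follow this division. Ccl5 was at 1337, 1066 and 552 CPM without and 994, 998 and 615 CPM with Havcr2, and Slfn5 at 15.9, 14.9 and 9.36 CPM without and 11.1, 20.3 and 1.58 CPM with it, both in overlapping ranges.

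**Figure D5:**
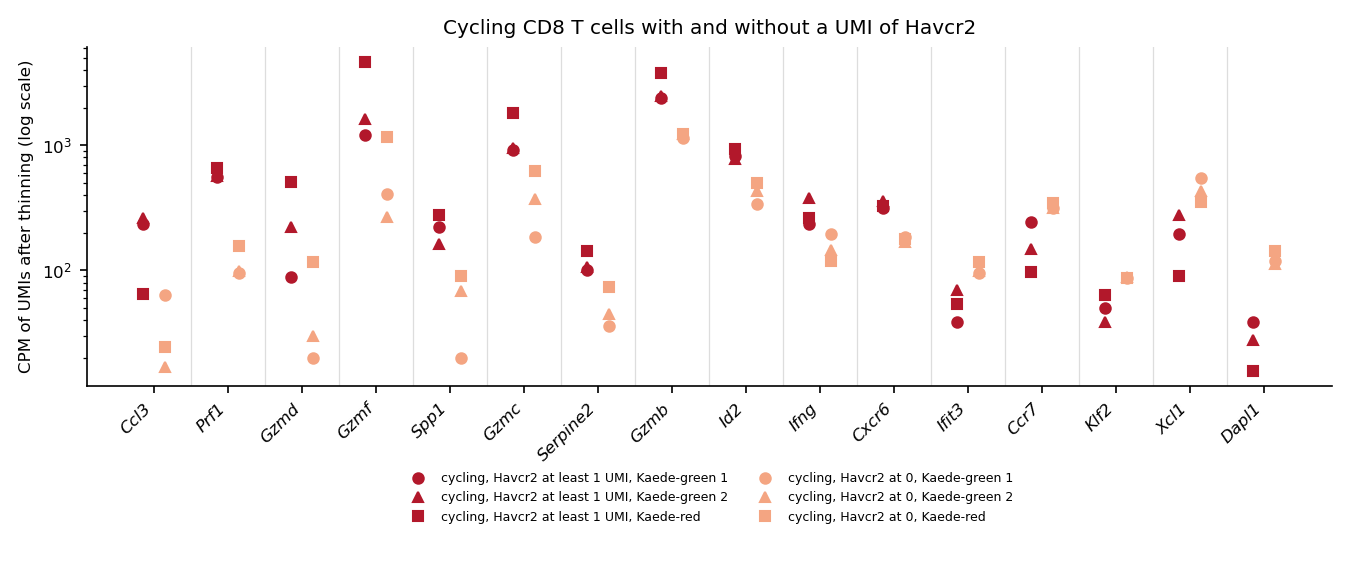
CPM after thinning (log axis) of 16 genes, picked after their values were seen, in cycling CD8 T cells with at least 1 UMI of Havcr2 (dark) and with none (light), with 1 symbol per library. Ccl3, Prf1, Gzmd, Gzmf, Spp1 and Gzmb are higher with Havcr2 in each library, and Dapl1 and Xcl1 are higher without it.

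With the cycling cells divided by the same threshold of 1 UMI of Havcr2 as the non-cycling ones, 669 genes were higher (9.05%) and 896 lower (12.1%) in cycling cells with Havcr2 than in non-cycling cells with it, and 977 higher (13.2%) and 1020 lower (13.8%) in those without, of 7393 tested. The division used UMIs at full depth, where cycling cells were deeper, so that cycling and non-cycling cells of a side were not matched in Havcr2 level. After thinning to 3000 UMIs, 114 of 282, 261 of 548 and 343 of 792 non-cycling Havcr2-positive cells of the 3 libraries still had a UMI of Havcr2, against 25 of 60, 47 of 181 and 125 of 423 cycling cells with Havcr2, a lower share in Kaede-green 2 and Kaede-red. Ccl5 was at -2.55 ± 0.08 with and -2.62 ± 0.08 without Havcr2, Slfn5 at -2.65 and -3.22, Ifit3 at -1.52 and -1.90 and Hirip3 at 2.69 and 2.63, and all of these passed the test. S1pr1 was at -1.91 ± 0.41 and -2.19 ± 0.23 (adjusted p = 0.000534 and 3.93e-09), so that it was lower in cycling cells on both sides. The rise of Prf1 against Havcr2-negative cells was no longer seen, at -0.31 ± 0.18 (adjusted p = 0.186), and Gzmb was lower, at -0.53 ± 0.14 (adjusted p = 0.00339). Gzmf kept a rise of 1.29 ± 0.26 (adjusted p = 0.000237) in the cells without Havcr2. Gzmc was higher on both sides (0.71 and 1.20), whereas Gzmd and Gzme were called higher with Havcr2 (0.84 and 0.81) and not without it. Of the granule list 3 of 17 genes were higher and 8 lower with Havcr2 and 2 higher and 7 lower without, and of the interferon list 33 and 43 of 50 were lower. The stem-like list had 9 of 20 lower and 2 higher with Havcr2 and 12 lower and 1 higher without, and Tcf7 was at -0.76 ± 0.66 with Havcr2 (adjusted p = 0.448) and at -0.79 ± 0.28 without (adjusted p = 0.0278).

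The share of cycling cells also differed with single markers among all CD8 T cells thinned to 3000 UMIs, where 1 UMI of Mki67 or Top2a sufficed. B cells thinned alike had a UMI of Top2a in 9 of 149, 6 of 77 and 0 of 5 cells. A UMI of Gzmf was found in 3, 3 and 1 of them, and no background was subtracted from the shares below. Cells with a UMI of S1pr1 were cycling in 7.63%, 12.4% and 10.7% of cases in the 3 libraries, and cells without in 14.1%, 20.6% and 26.3%. The 7.63% of Kaede-green 1 lay near the 6.04% of its B cells with Top2a. For Tcf7 the shares were 7.97%, 14.6% and 17.8% with and 13.7%, 19.8% and 26.2% without, and for Gzmf 26.0%, 25.3% and 28.4% with and 11.7%, 18.1% and 23.8% without. The shares were lower with S1pr1 and Tcf7 and higher with Gzmf in every library. For Pdcd1 they were 14.5%, 18.8% and 24.3% with and 10.9%, 19.5% and 29.0% without, in no single direction.

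Between the Kaede fractions, 660 genes of the lists and named genes outside the cell cycle had at least 30 UMIs in a library of cycling CD8 T cells. Of these, 82 were higher and 159 lower in Kaede-red than in both Kaede-green libraries by a gap exceeding the one from Kaede-green 1 to Kaede-green 2. For nearly every gene 1 of the 3 libraries lies apart in this way, whichever it is. The counts for the Kaede-green libraries were not taken, so these 2 counts do not show a difference of Kaede-red. In 2 of the higher and 2 of the lower genes the difference was also over 2-fold. Those over 2-fold higher were Gzmf, at 756.9, 943.8 and 3186 CPM in the 3 libraries, and Gzmc, at 479.2, 651.9 and 1305 CPM. Those over 2-fold lower were Ccl3, at 169.0, 148.9 and 53.7 CPM, and Gzma, at 435.2, 437.9 and 180.8 CPM. In the non-cycling Havcr2-positive cells Kaede-red was likewise highest for Gzmf, with 904.3, 493.9 and 5263 CPM, and lowest for Gzma, with 1452, 1437 and 355.6 CPM. With 1 Kaede-red library there is no test, and the fraction and the library cannot be told apart.

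Markers of other cells were low in the cycling gate. The 6 myeloid markers summed to 83.3, 109.5 and 49.4 CPM in cycling cells of the 3 libraries, with Cd74 the most abundant at 62.4 CPM and C1qa, C1qb and Csf1r at 0, against 266, 245 and 33.7 CPM in Havcr2-positive and 150, 194 and 39.4 CPM in Havcr2-negative cells. The 5 NK markers summed to 76.4, 156.8 and 87.6 CPM, led by Fcer1g at 67.7 CPM, with Ncr1 at 0 by the gate, against 122 to 244 CPM in the other sums. The 5 B cell markers summed to 20.8, 17.8 and 20.7 CPM, led by Ighm at 18.2 CPM, with Ms4a1 at 0. Gamma-delta T, CD4 T, plasmacytoid dendritic, mast cell, tumor and fibroblast markers each summed to at most 16.8 CPM in any library, and the erythroid markers were at 0. The myeloid and B cell sums were thus lower in cycling than in non-cycling cells of both Kaede-green libraries, but in Kaede-red the cycling cells had the higher myeloid sum and a B cell sum above that of the Havcr2-positive cells (11.8 CPM). The NK sum was lower than in both gates in every library. These sums moved beside the lower interferon and chemokine transcripts, and their part in those results was not tested. The automatic Scrublet threshold marked 0 cycling cells as doublets, and a score above 0.25, set after seeing the data, was reached by 0%, 1.48% and 1.13% of them. That automatic threshold marked 316, 2 and 4 cells of any kind in the 3 libraries. Median scores were higher in cycling cells (0.081, 0.065 and 0.059) than in Havcr2-positive cells (0.039, 0.033 and 0.036).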

How the data were processed

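The authors made count tables of the 3 libraries (10x 3' chemistry) with Cell Ranger on mm10. The submitters' notes name version 6.1.2, whereas the header of the matrices names 6.0.1. The deposited values are whole UMI counts per gene and cell. The members and the gene lists were chosen with earlier results of these data known.

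Each CD8 T cell was thinned at random to 3000 UMIs (1 Havcr2-positive cell each of Kaede-green 1 and Kaede-red and 20, 3 and 8 Havcr2-negative cells were too shallow), and counts were summed per library and gate. The 9 sums were fitted with edgeR 4.0.16 in R 4.3.3 (quasi-likelihood, TMM scaling, filterByExpr, library as a block), adjusted by Benjamini-Hochberg over all 9067 genes tested at 0.05. Counts of calls leave out the 519 tested genes of the gates and the cell cycle list. Standard errors are those of the fit with 3 libraries a gate. Same-library sums share a cell suspension, which is where the block comes from. Genes named were the 10 largest changes each way with at least 50 CPM in the higher gate and 1 direction in all 3 libraries, outside gene models, ribosomal protein, mitochondrial and receptor segment genes, and members of the lists. The fit was tested on simulated counts. Thinning depths, thresholds, doublets (Scrublet in scanpy 1.11.5), filters, scaling and DESeq2 1.42.0 were tried as alternatives. Binomial intervals are exact (Clopper-Pearson, 95%) and cover counting error only. Gene positions are from GENCODE on GRCm38. Some genes that the rule or the lists name are not reported here.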

Additional observations from a re-analysis of the deposited data

How the results depend on the processing

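The analysis rests on 3 libraries, 1 of them Kaede-red, and on random thinning. With the thinning drawn anew after removal of automatic Scrublet doublets, none of them cycling, 654 of the 872 higher and 720 of the 1000 lower calls against Havcr2-positive cells were found again, and 1171 of 1437 and 1272 of 1614 against Havcr2-negative cells. Against Havcr2-positive cells, higher and lower calls numbered 583 and 547 without the library term, that is with no replicate block, 503 and 569 by DESeq2 (all among the first calls), 1849 and 2051 with no thinning, 513 and 564 depth-restricted, and 569 higher calls with a threshold of 2 UMIs of Mki67 and Top2a. Against Havcr2-negative cells they numbered 1134 and 1303 with no block, 983 and 1002 by DESeq2, 2642 and 2915 with no thinning and 583 and 672 depth-restricted, with 1020 lower calls when cycling cells were split by Havcr2. Leaving out a library gave 490 to 706 higher and 474 to 790 lower calls against Havcr2-positive and 978 to 1177 higher and 1050 to 1307 lower calls against Havcr2-negative cells, with the fewest of each without Kaede-green 2. Of 2572 results for named genes under 19 alternatives, 2398 kept their side of the threshold, and their direction where called. Results uncalled before and after count among these 2398 whatever their sign. A further 99 lost the call, 55 gained one and 20 changed sign with a call before or after, 13 of them depth-restricted and 7 with the split by Havcr2.

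Depth-restricted, the log2 fold change against Havcr2-positive cells became -0.27 for Gapdh, -1.05 for Gzmc, -1.03 for Gzmd, -1.22 for Gzme, 0.38 for Gzmk, 0.045 for Isg15 and -0.086 for Tpi1, and against Havcr2-negative cells 0.90 for Ccl4, -0.88 for Dapl1, 1.78 for Gzmk, 0.064 for Icos, -0.18 for Myb and -0.73 for Xcl1. With the split by Havcr2 it became -0.14 for Ccr7 and -0.76 for Tcf7 with Havcr2, and -0.47 for Ccl3, 0.068 for Ccr7, -0.53 for Gzmb, -0.081 for Ifng and -0.31 for Prf1 without it. The causes were not tested. The cycling share of CD8 T cells in Kaede-green 1, Kaede-green 2 and Kaede-red was 12.2%, 21.5% and 30.4% from 2 UMIs, 4.66%, 7.38% and 15.0% from 8 UMIs, 5.39%, 9.71% and 17.5% with 1 UMI of Cd3e and of Cd8a or Cd8b1, and 12.7%, 19.1% and 25.7% after thinning, in the same order each time.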
